A study of Mus musculus with 4 samples.

Results

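The Sox family genes described here were Sox2, Sox4, Sox5, Sox7, Sox9, Sox10, Sox11, Sox17 and Sox18. They were taken from a fixed list of 9 symbols and matched by Ensembl identifier, and all 9 were present among the 27514 genes shared by the 4 gene tables. Cells with a history of Tbx1Cre activity, sorted from pooled Swiss Webster mouse embryos, were captured singly in droplets, and transcripts were counted from their 3′ ends by unique molecular identifier (UMI). Controls (Ctrl) were Tbx1Cre/+;Rosa26-GFPflox/+ and conditional knockouts (cKO) were Tbx1Cre/flox;Rosa26-GFPflox/+, each sampled once at embryonic day (E) 8.5 from the upper part of the body and once at E9.5 from the pharyngeal apparatus with the heart. Cre was expressed from the Tbx1 locus and replaced 1 copy of Tbx1, so that both genotypes lacked that copy and the comparison was between 1 and no working copy in cells that had recombined the flox allele. The Rosa26-GFPflox reporter marked cells with a history of Tbx1 expression, and only GFP-positive, DAPI-negative cells were captured. The paper's sample summary adds the back to the E9.5 tissue. It also lists fewer embryos in the cKO pools than in the Ctrl pools of each stage, with slightly different somite ranges.

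SOX proteins are transcription factors that share an HMG box, which binds the minor groove of DNA and bends it, and they are sorted into subgroups by sequence. SOX2 (subgroup B1) marks progenitors of neural, sensory and foregut epithelium. SOX4 and SOX11 (subgroup C) are widespread in embryonic progenitors and neurons. SOX5 (D) and SOX9 (E) act together in the cartilage lineage. SOX10 (E) marks neural crest, glia and the otic epithelium. SOX7, SOX17 and SOX18 (F) act in endothelial cells, and SOX17 also in definitive endoderm.

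In build GRCm38.p6 the genes lie apart on 9 chromosomes: Sox2 at chr3:34649995-34652461, Sox4 at chr13:28948919-28953699, Sox5 at chr6:143828425-144782287, Sox7 at chr14:63943706-63950732, Sox9 at chr11:112782210-112787757, Sox10 at chr15:79154913-79164490, Sox11 at chr12:27334268-27342718, Sox17 at chr1:4490928-4497426 and Sox18 at chr2:181669837-181671640. Sox2 lies inside the span of the transcript Sox2ot, chr3:34560381-34677993, which was not analysed here, so the assignment of reads between them rests on the authors' counting. RefSeq promoter sequence was given for Sox2, Sox4, Sox5 and Sox11. The stretches of 250 bases before the start of Sox4 and Sox11 are shown because the balance of these paralogs differed between the E9.5 libraries, as described below. Both are on the minus strand, Sox4 at chr13:28953700-28953949 and Sox11 at chr12:27342719-27342968, and capitals mark the E-box hexamer CAGCTG, which reads the same on both strands.
Sox4: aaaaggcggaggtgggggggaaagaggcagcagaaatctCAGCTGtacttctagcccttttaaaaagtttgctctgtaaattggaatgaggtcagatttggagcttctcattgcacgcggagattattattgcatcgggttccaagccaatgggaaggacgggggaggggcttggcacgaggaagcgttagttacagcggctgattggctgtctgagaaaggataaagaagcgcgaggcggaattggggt
Sox11: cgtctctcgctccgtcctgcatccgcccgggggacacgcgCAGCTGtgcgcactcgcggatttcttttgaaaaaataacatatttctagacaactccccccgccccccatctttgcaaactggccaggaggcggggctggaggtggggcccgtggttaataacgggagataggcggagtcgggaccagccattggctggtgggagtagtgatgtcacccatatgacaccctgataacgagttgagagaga
The hexamer lies 211 to 206 bases before the start of Sox4 and 210 to 205 bases before that of Sox11. Stretches of the same length hold it in 13.0% of 32851 RefSeq promoters, and 2 of the 4 Sox promoters held it. The hexamer was picked after the data were seen, and a match to these letters is a description and not evidence of binding.

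There was 1 library per genotype and stage, so no value has a replicate, genotype and library cannot be told apart at either stage, and no test between groups was possible. The libraries held 1090 to 6266 cells and 25391654 to 104773150 UMIs, and their median cells had 15910 to 23984 UMIs. Levels are UMIs per 1000000 UMIs of shared genes (UPM). The ranges in parentheses are exact 95% intervals that cover counting error only, since UMIs of cells from the same pool are not independent samples of embryos. Tbx1 was at 86.4 UPM in Ctrl and 118 in cKO at E8.5, and 103 in Ctrl and 134 in cKO at E9.5. It was not lower in either cKO library, and a 3′ tag outside the deleted part does not check the deletion. The lowest barcode held 500 UMIs in the E8.5 libraries and 4225 in the E9.5 libraries, and 2 to 55 barcodes were shared between pairs of libraries. Haemoglobin RNA (Hbb-y) was at 28.8 UPM in Ctrl E9.5, 2.05 in cKO E9.5, 0.198 in Ctrl E8.5 and 0 in cKO E8.5. Gata1 was at 0 in all 4. Cells with at least 4 of 7 blood markers numbered 1 in Ctrl E9.5, 16 in cKO E9.5 and 0 in both E8.5 libraries. No blood group was formed, so these cells were not set apart.

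Cells were placed into 12 groups by how many markers of each type they held, and no Sox gene was a marker. The groups were mesenchyme-like cells, multilineage progenitor-like (MLP-like), aSHF/SoM-like (anterior second heart field and somatic mesoderm), pSHF-like (posterior second heart field), branchiomeric muscle-like (BrM-like), somitic-like, cardiomyocyte-like, endothelial-like, epithelial-like, neural crest-like, neural progenitor-like and neuronal-like cells. Endothelial-like cells made up 4.18%, 4.04%, 7.56% and 1.9% of Ctrl E8.5, cKO E8.5, Ctrl E9.5 and cKO E9.5. Epithelial-like cells made up 1.26%, 1.47%, 14.1% and 3.32% of the same libraries. Barcodes that met no group's rule, or that tied between groups (unassigned cells), numbered 456, 211, 456 and 1233. When each library was clustered without Sox genes, 405 of 412 endothelial-like and 742 of 767 epithelial-like cells of Ctrl E9.5, and 113 of 119 and 189 of 208 of cKO E9.5, fell into clusters of the same name. So did 71 of 72 and 70 of 75 pSHF-like and 333 of 366 and 181 of 188 BrM-like cells. The clusters themselves were larger, with 165 and 171 pSHF-like and 423 and 408 BrM-like cells. Fewer were placed alike among MLP-like cells, 63 of 131 and 134 of 181, and somitic-like cells, 4 of 21 and 28 of 132. Among mesenchyme-like cells these were 2007 of 2736 in Ctrl and 1032 of 3614 in cKO at E9.5. No cluster was named neural crest-like in cKO E8.5 or at E9.5. At E8.5 all 60 and 44 endothelial-like cells of Ctrl and cKO were placed alike, though their clusters were larger, with 113 and 66 cells. Of the neural crest-like cells of Ctrl, 25 of 27 were placed alike. Fewer were among mesenchyme-like cells, 195 of 525 and 157 of 452, and MLP-like cells, 65 of 149 and 42 of 102. Somitic-like cells gave 18 of 71 and 84 of 108, and cardiomyocyte-like cells 0 of 24 and 20 of 20.

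The 9 genes divided into widespread and restricted ones. Sox4 and Sox11 were found in nearly every kind of cell. At 10000 UMIs per cell, Sox11 had at least 1 UMI in 91.6%, 88.2%, 91.4% and 91.1% of cells in Ctrl E8.5, cKO E8.5, Ctrl E9.5 and cKO E9.5, and Sox4 in 74.8%, 80.6%, 86.9% and 81.4%. Sox9 was high in mesenchyme-like and otic-like cells and, at E8.5, in neural crest-like cells, and Sox5 was low in every group. Sox7, Sox17 and Sox18 were mostly in endothelial-like cells, Sox10 in neural crest-like and otic-like cells, and Sox2, at E9.5, in epithelial-like and neural progenitor-like cells.

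**Figure D1:**
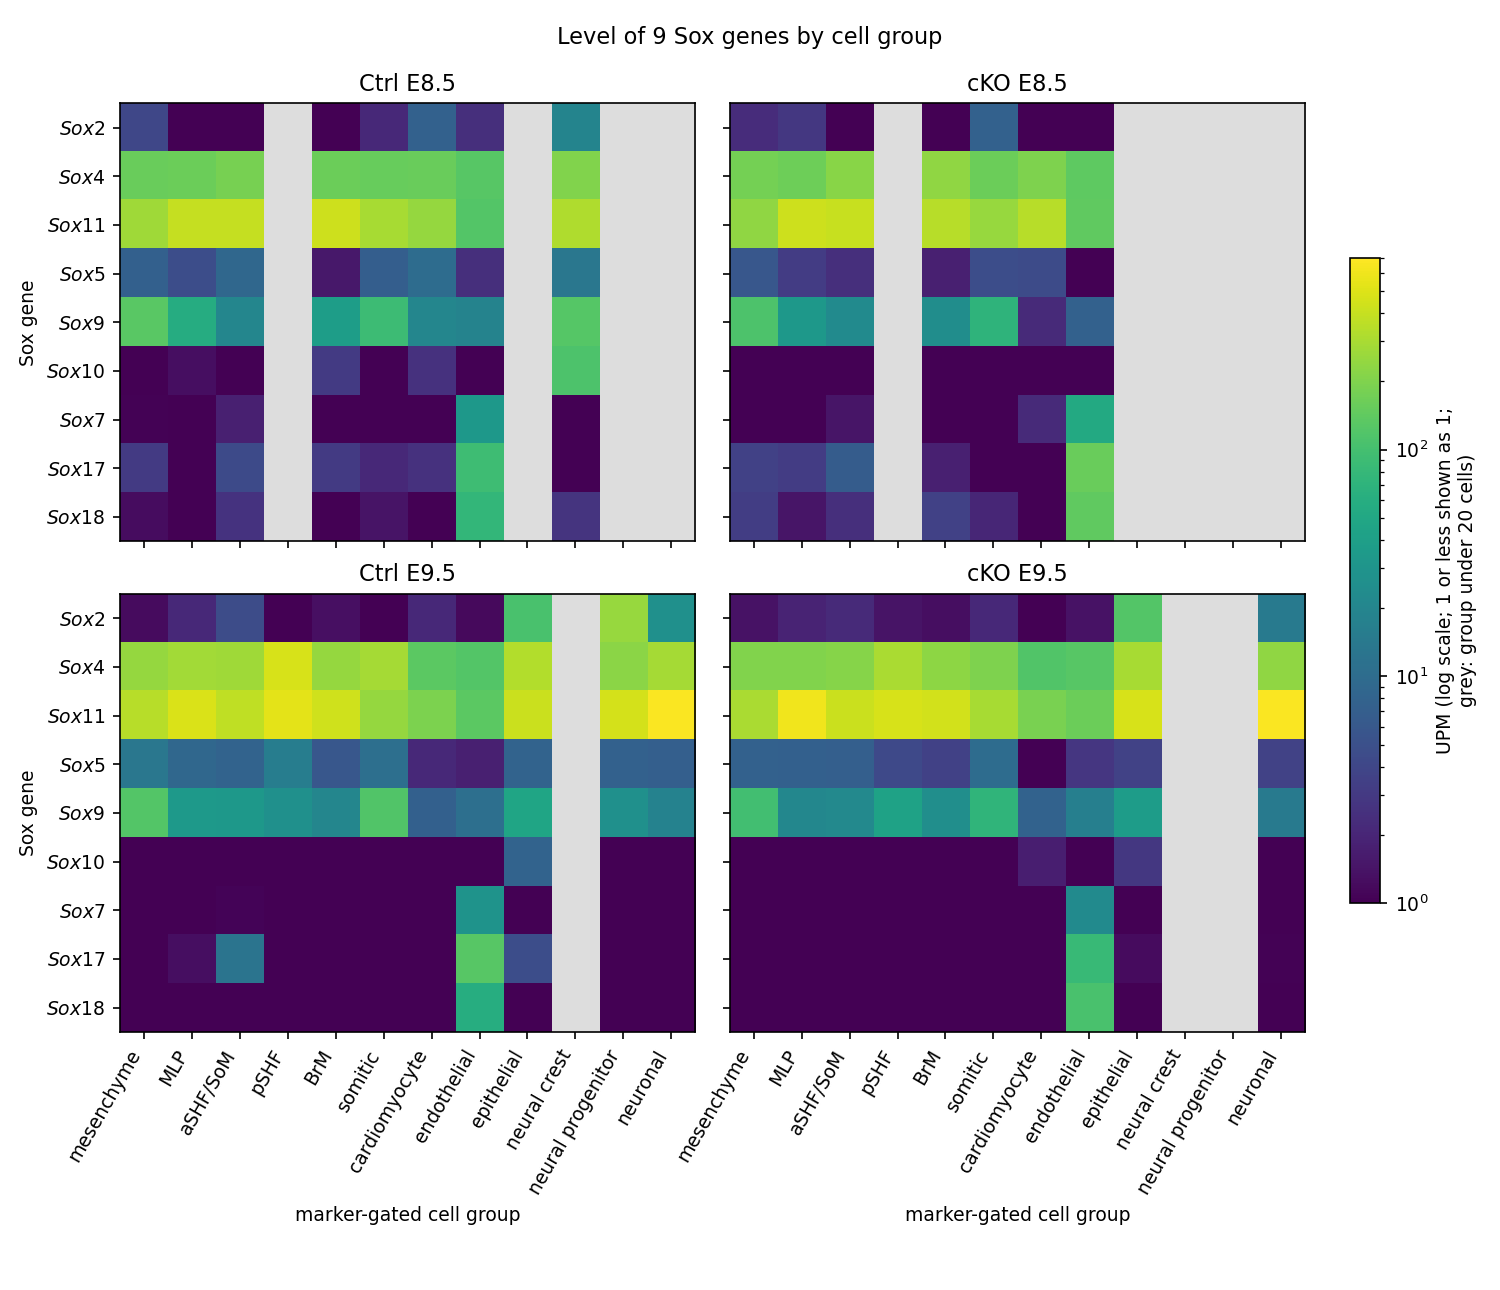
Colour gives the level (UPM, log scale) of each of the 9 Sox genes (rows) in each marker-gated group (columns) of the 4 libraries (panels). Grey columns had under 20 cells. Sox4 and Sox11 are high throughout, and Sox7, Sox17 and Sox18 stand out in the endothelial-like column, where Sox17 reached 156 UPM in cKO E8.5.

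Over all cells, the SOXF genes, Sox2 and Sox10 were lower in cKO than in Ctrl at E9.5. A gene was called higher or lower where its level was past 1.5-fold with a counting interval that excluded no change, among genes with at least 20 UMIs in the 2 sums together. By that rule 5 of 9 Sox genes were lower and none was higher in cKO E9.5, where 22.2% of all genes were lower and 5.85% were higher. The median of all genes was itself at a log2 ratio of -0.26, and relative to it Sox2 was at -1.32, Sox7 at -2.18, Sox10 and Sox17 at -2.38 and Sox18 at -0.79. Sox17 was at 13.2 UPM in Ctrl and 2.12 UPM in cKO (log2 ratio -2.64, -2.85 to -2.43), and Sox7 at 2.79 and 0.516 UPM (-2.43, -2.88 to -2.01). Sox10 was at 1.85 and 0.296 UPM (-2.64, -3.24 to -2.08). Sox2 was at 21.4 and 7.17 UPM (-1.58, -1.70 to -1.46), and Sox18 at 5.59 and 2.70 UPM (-1.05, -1.26 to -0.84). The other 4 lay closer to no change, with Sox5 at -0.56, Sox4 at -0.29, Sox9 at -0.15 and Sox11 at 0.01. With scaling factors that take most genes as unchanged (TMM), all-cell ratios moved by 0.26, which put Sox4 at -0.04, Sox9 at 0.11 and Sox11 at 0.26, so no direction is given for these 3 genes over all cells.

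Most of these differences moved with the shares of the groups. When the cKO E9.5 groups were weighted by the shares of UMIs, not of cells, that they have in Ctrl E9.5, the log2 ratio of Sox2 was 0.05. That of Sox7 was -0.41, of Sox10 -0.97 and of Sox17 -0.76. Sox18 turned to 0.83, and Sox5 was at -0.75. Sox4, Sox9 and Sox11 were at -0.25, -0.32 and 0.0. Within the GFP-sorted cells, fewer cells of a type and less RNA per cell cannot be told apart from the all-cell values, and the within-group values below bear on the second only.

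At E8.5 the gated endothelial and epithelial shares were close in both genotypes, and fewer members differed over all cells. Clusters put the shares further apart. They held 113 and 66 endothelial-like and 16 and 54 epithelial-like cells, among 1434 Ctrl and 1090 cKO cells. Sox18 was the only gene called, higher in cKO at 8.98 UPM against 5.11 UPM (0.81, 0.50 to 1.13), so that 1 of 9 members was higher and none lower where 6.49% of all genes were higher and 2.92% lower. Sox17 was at 10.0 against 7.45 UPM (0.43, 0.15 to 0.71) and Sox5 at 4.66 against 6.89 UPM (-0.56, -0.91 to -0.22), and both stayed inside 1.5-fold. The intervals of Sox2 (-0.41 to 0.21), Sox7 (-0.24 to 0.76) and Sox10 (-0.77 to 0.06) included no change.

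**Figure D2:**
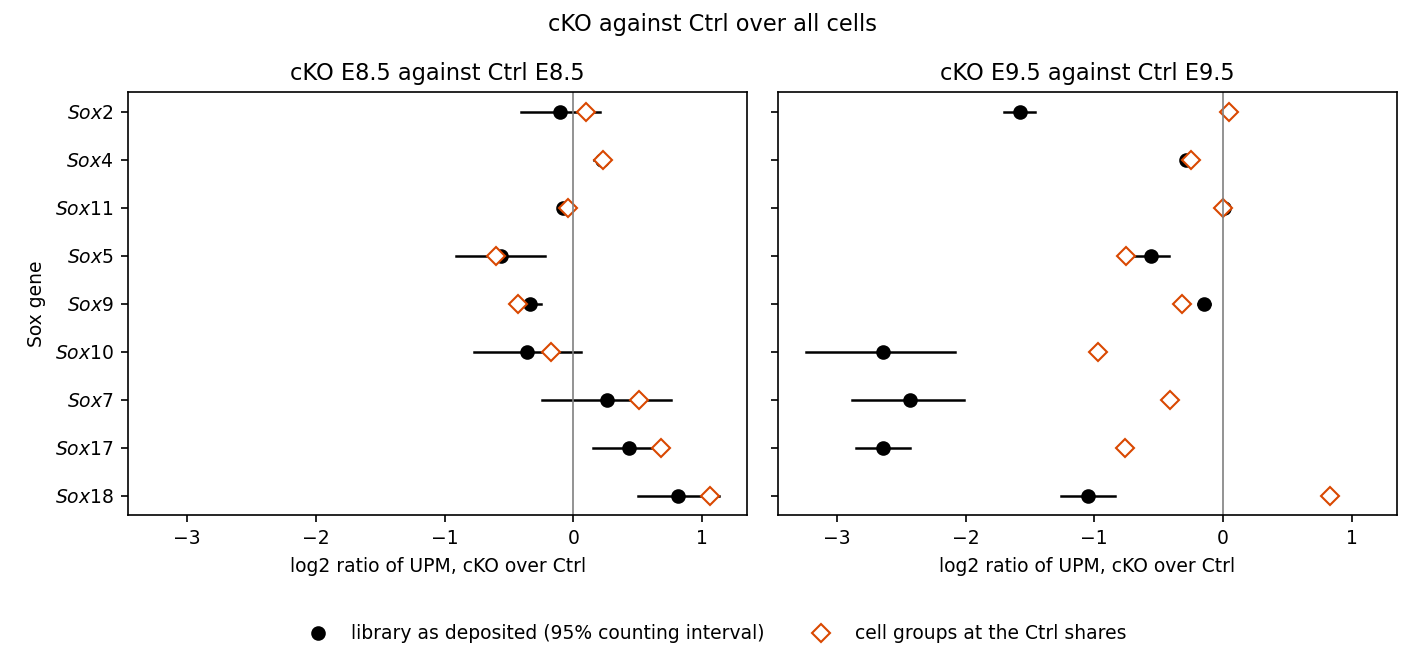
Points give the log2 ratio of UPM, cKO over Ctrl, of each Sox gene over all cells in the E8.5 panel (left) and the E9.5 panel (right), with 95% counting intervals as lines. Diamonds give the same ratio with the cell groups at the UMI shares of the Ctrl library. At E9.5 the diamond of Sox2 lies at 0.05 and that of Sox18 at 0.83, on the other side of no change from their points.

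Among the SOXF genes, Sox17 and Sox18 went opposite ways in endothelial-like cells at E9.5. Sox17, which marks arterial endothelium, was at 92.6 UPM in Ctrl (76.4 to 111) and 156 in cKO (133 to 182) at E8.5, and 128 in Ctrl (120 to 136) and 82.7 in cKO (71.0 to 95.7) at E9.5. Sox18, known from lymphatic and vascular development, was at 76.4 (61.7 to 93.5), 143 (121 to 168), 59.2 (54.1 to 64.7) and 106 UPM (93.0 to 121). Sox7 was at 33.3 (23.9 to 45.2), 53.1 (40.1 to 68.9), 29.2 (25.7 to 33.1) and 22.8 UPM (16.8 to 30.1). All 3 were thus highest in cKO E8.5. At E9.5 the cKO library held less Sox17, more Sox18 and an amount of Sox7 whose interval overlapped that of Ctrl.

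As ratios of cKO over Ctrl in endothelial-like cells, Sox17 was at 0.76 at E8.5 (0.40 to 1.11) and -0.63 at E9.5 (-0.87 to -0.40). Sox18 was at 0.91 (0.53 to 1.29) and 0.84 (0.61 to 1.07). Sox7 was at 0.67 (0.07 to 1.29) and -0.36 (-0.83 to 0.09). Together with Sox9, 4 of 6 members tested were called at E8.5 (Sox7, Sox17 and Sox18 higher, Sox9 lower), where 9.16% of all genes were called. At E9.5, 3 of 7 were called (Sox9 and Sox18 higher, Sox17 lower), where 17.4% of all genes were called. These ratios rest on 60, 44, 412 and 119 endothelial-like cells. The E9.5 ratio of Sox17 stayed below no change but inside 1.5-fold with TMM factors (-0.51, -0.74 to -0.28), with 1 more marker (-0.46, -0.70 to -0.23) and with the gate set on thinned cells (-0.43, -0.68 to -0.18), and at E8.5 it was 0.58 with thinned cells (0.04 to 1.12). The E8.5 interval of Sox7 reached no change with thinned cells (-0.07 to 1.79).

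The balance of Sox18 to Sox17 UMIs in endothelial-like cells does not depend on scaling between libraries. It was 0.825 Sox18 UMIs per Sox17 UMI in Ctrl (0.621 to 1.09) and 0.915 in cKO (0.729 to 1.15) at E8.5, and 0.463 in Ctrl (0.416 to 0.516) and 1.29 in cKO (1.05 to 1.57) at E9.5. The E8.5 intervals overlapped and the E9.5 intervals did not. Over all cells of E9.5 the balance was 0.423 (0.382 to 0.469) and 1.27 (1.07 to 1.53). Sox7 per Sox17 UMI was at 0.228 in Ctrl (0.198 to 0.263) and 0.275 in cKO (0.196 to 0.380) at E9.5, with overlapping intervals.

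**Figure D3:**
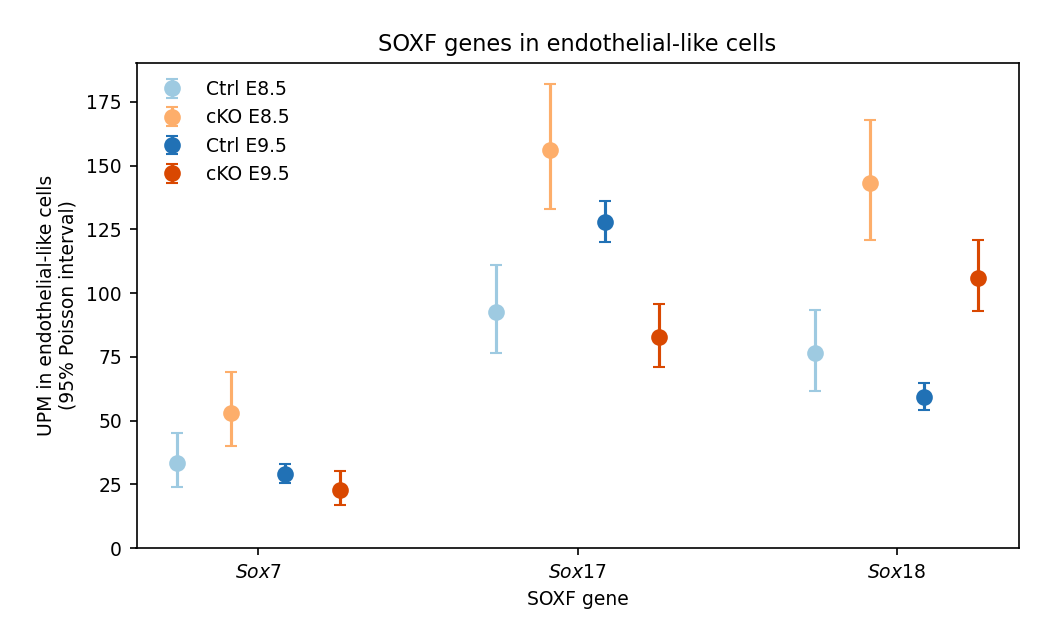
Points give the level (UPM) of Sox7, Sox17 and Sox18 in endothelial-like cells of each library, with 95% Poisson intervals as bars. Sox17 stands at 128 UPM in Ctrl and 82.7 in cKO at E9.5, and Sox18 at 59.2 and 106 UPM.

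Between the E9.5 libraries, the shares of positive cells lay in the same order as the levels. At 10000 UMIs per cell, Sox17 was found in 45.8%, 69.8%, 59.5% and 45.2% of endothelial-like cells of Ctrl E8.5, cKO E8.5, Ctrl E9.5 and cKO E9.5, and in 63.3%, 90.9%, 75.2% and 56.3% at full depth. Sox18 was found in 42.4%, 69.8%, 42.9% and 64.4%, and in 78.3%, 93.2%, 64.3% and 75.6% at full depth. Sox7 was found in 28.8%, 48.8%, 25.7% and 21.2%, and in 51.7%, 72.7%, 40.8% and 33.6% at full depth. In mesenchyme-like cells, which should lack them, no SOXF gene passed 2.7% in any library at 10000 UMIs. Median depths at full depth were 16819 to 24520 UMIs in endothelial-like and 15756 to 23283 UMIs in mesenchyme-like cells. Thinning left out 1, 1, 27 and 15 endothelial-like cells and 14, 8, 254 and 311 mesenchyme-like cells.

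Detection of the SOXF genes in the same endothelial-like cells is given at 10000 UMIs. Positive cells then held a mean of 1.12 to 2.43 UMIs of each gene, so that absence of a gene from a cell cannot be told apart from sampling. In Ctrl E9.5, 44.5% of the Sox17-positive cells also held Sox18 (38.0% to 51.2%), against 40.4% of the Sox17-negative cells. In cKO E9.5 these shares were 74.5% (59.7% to 86.1%) and 56.1%. All 3 genes were found in 5.08%, 20.9%, 6.49% and 10.6% of endothelial-like cells and none of them in 16.9%, 4.65%, 19.0% and 18.3%, in the order Ctrl E8.5, cKO E8.5, Ctrl E9.5, cKO E9.5.

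SOXF RNA outside the gated endothelial-like group was scarcer at E9.5 than at E8.5. Sox17-positive mesenchyme-like cells of E8.5 held a median of 3 endothelial markers in both genotypes, against 1 in the Sox17-negative ones. How many endothelial cells the gate missed at each stage was not tested. At E8.5 endothelial-like cells held 64.1% of the Sox7, 60.6% of the Sox17 and 72.9% of the Sox18 UMIs in Ctrl, and 71.8%, 64.0% and 65.4% in cKO. At E9.5 endothelial-like cells held 93.5% of the Sox7, 94.7% of the Sox18 and 86.5% of the Sox17 UMIs of Ctrl E9.5, from 8.94% of its UMIs. In cKO E9.5 they held 90.7%, 80.9% and 80.2%, from 2.06% of its UMIs. In Ctrl E9.5 another 59 Sox17 UMIs were in aSHF/SoM-like cells (12.5 UPM), of which 58 came from 4 cells, and the 5 positive cells there held a median of 4 endothelial markers against 1 in the others. A single UMI was found in the same group of cKO E9.5, so the large ratio rests on those few cells. In mesenchyme-like cells Sox18 was at 1.25, 3.31, 0.267 and 0.729 UPM, and was called higher in cKO at both stages (1.41, 0.43 to 2.48, and 1.45, 0.50 to 2.51) from 12, 36, 12 and 44 UMIs. With thinned cells the intervals of both ratios included no change (-0.64 to 2.46 and -0.38 to 2.45). In epithelial-like cells of E9.5, Sox17 was at 4.74 UPM in Ctrl and 1.22 in cKO (-1.96, -3.63 to -0.67) from 70 and 5 UMIs, or -1.56 with thinned cells (-3.91 to 0.11). Within them, endoderm-like cells held 26 and 4 Sox17 UMIs, at 5.21 UPM (3.41 to 7.64) and 4.14 UPM (1.13 to 10.6).

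Vascular genes tied to SOXF factors were compared as a list of 5. In Ctrl E9.5, endothelial-like cells held 6617 of 6749 Cldn5 and 170 of 235 Dll4 UMIs. They held only 384 of 1268 Notch1, 49 of 464 Prox1 and 19 of 2133 Vcam1 UMIs, so all-cell values of the list were not endothelial alone. Over all cells at E9.5, 3 of the 5 were lower in cKO, where 22.2% of all genes were (median log2 ratio -1.62 against -0.26 for all genes). The endothelial share was 7.56% in Ctrl and 1.9% in cKO at that stage, and its part in the list's difference was not tested. Within endothelial-like cells at E9.5, 2 of 5 were lower, where 17.4% of all genes were called in either direction: Dll4, a Notch ligand of arterial cells, at 20.2 and 11.1 UPM (-0.86, -1.54 to -0.23), and Prox1, a lymphatic and cardiac transcription factor, at 5.82 and 1.86 UPM (-1.65, -3.58 to -0.20) from 49 and 4 UMIs. Cldn5, a tight junction protein, was at 785 and 703 UPM, and Notch1 at 45.6 and 39.0 UPM, both short of 1.5-fold. At E8.5, 2 of 3 tested genes were higher, where 9.16% of all genes were called: Cldn5 was at 147 in Ctrl and 230 UPM in cKO (0.65, 0.36 to 0.93) and Notch1 at 25.2 and 51.2 UPM (1.02, 0.36 to 1.71). From Ctrl E8.5 to Ctrl E9.5, all 5 were higher over all cells, where 32.1% of all genes were, and 3 of 5 (Cldn5, Dll4 and Notch1) within endothelial-like cells, where 21.7% of all genes were called.

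Sox2 RNA was mostly epithelial at E9.5, and the all-cell difference at that stage did not recur within epithelial-like cells. Epithelial-like cells held 78.9% of Sox2 UMIs in Ctrl and 66.9% in cKO at E9.5. At E8.5 they held 15.5% and 23.3%, neural progenitor-like cells 20.4% and 11%, mesenchyme-like cells 21.5% and 14.5% and unassigned cells 28.2% and 30.2%. The epithelial-like level was 92.2 UPM in Ctrl and 101 in cKO at E8.5, and 108 in Ctrl and 122 in cKO at E9.5, and the E9.5 ratio was 0.18 (0.03 to 0.32), or 0.01 with thinned cells. The E8.5 values rest on 18 and 16 cells. At 10000 UMIs, 47.0% of epithelial-like cells of Ctrl and 42.8% of cKO at E9.5 held Sox2, against 1.17% and 1.45% of mesenchyme-like cells, and the shares at full depth were 56.5%, 54.3%, 1.9% and 1.99%.

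Among the parts of the epithelium, which were split by at least 3 markers each, Sox2 was highest in endoderm-like cells and lowest in surface ectoderm-like cells. In Ctrl E9.5 it was at 176 UPM in 262 endoderm-like cells (164 to 188), 141 in 69 otic-like cells (122 to 161) and 25.7 in 208 surface ectoderm-like cells (20.9 to 31.2). In cKO E9.5 it was at 259 UPM in 44 endoderm-like cells (228 to 293), 244 in 11 otic-like cells (180 to 325) and 15.7 in 69 surface ectoderm-like cells (9.74 to 24.1). The endoderm-like level was higher in cKO by a log2 ratio of 0.56 (0.35 to 0.76), short of 1.5-fold, and the surface ectoderm-like level was lower (-0.71, -1.46 to -0.02). Endoderm-like cells numbered 262 of 767 epithelial-like cells in Ctrl and 44 of 208 in cKO at E9.5. Neural progenitor-like cells held the highest level of all groups in Ctrl E9.5, 254 UPM in 58 cells (225 to 287), and were at 148 UPM in 19 cells of cKO E9.5 (112 to 192). Clusters of that name held 63 cells in Ctrl and 411 in cKO at E9.5, so this comparison rests on the gate.

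In aSHF/SoM-like cells Sox2 was scarce, at 4.64 UPM in Ctrl and 2.19 in cKO (-1.09, -2.17 to -0.05) at E9.5 from 22 and 14 UMIs, and its interval included no change with TMM factors (-1.97 to 0.14). With Sox9 and Sox17, it made 3 of 6 tested members lower in that group, where 18.3% of all genes were called. In mesenchyme-like cells of E8.5 it was at 4.07 and 2.30 UPM (-0.82, -1.61 to -0.06), and with Sox18 made 2 of 7 tested members called where 8.85% of all genes were. This Sox2 difference was 0.14 (-1.34 to 1.59) when the mesenchyme-like group was taken from clusters instead. At the same stage Sox2 was higher in cKO in somitic-like cells, at 7.68 against 2.13 UPM (1.85, 0.12 to 4.23) from 23 and 3 UMIs, and in unassigned cells, at 15.4 against 8.09 UPM (0.93, 0.35 to 1.52). In unassigned cells of E9.5 it was lower, at 2.52 against 5.80 UPM (-1.20, -1.90 to -0.50).

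Sox4 and Sox11 were found in every group, and their balance differed between the E9.5 libraries. Sox4 was at 159, 185, 255 and 208 UPM over all cells of Ctrl E8.5, cKO E8.5, Ctrl E9.5 and cKO E9.5, and Sox11 at 307, 291, 354 and 356 UPM. Sox11 UMIs per Sox4 UMI, a number free of scaling between libraries, were 1.93 (1.86 to 2.01), 1.57 (1.52 to 1.63), 1.39 (1.36 to 1.41) and 1.71 (1.68 to 1.74). The balance was thus higher in Ctrl than in cKO at E8.5 and lower in Ctrl than in cKO at E9.5. UMI capture can differ between genes, so this number is compared between libraries and groups and not read as a ratio of transcripts. Whether capture of a gene was equal across libraries was not tested, and the gene table of cKO E9.5 differed in size from the others.

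The E9.5 intervals lay apart in MLP-like cells, where Sox11 per Sox4 was 1.72 in Ctrl (1.56 to 1.90) and 3.04 in cKO (2.80 to 3.31) at E9.5, and 2.47 and 2.57 in the E8.5 libraries. It was 1.39 (1.29 to 1.49) and 1.94 (1.81 to 2.07) in aSHF/SoM-like cells, 1.15 (1.03 to 1.28) and 1.54 (1.37 to 1.74) in pSHF-like cells, 0.849 (0.634 to 1.14) and 1.51 (1.36 to 1.69) in the 21 and 132 somitic-like cells, and 1.25 (1.21 to 1.30) and 1.58 (1.47 to 1.70) in epithelial-like cells. The step was smaller in mesenchyme-like cells, from 1.37 (1.34 to 1.41) to 1.51 (1.47 to 1.54). In BrM-like, endothelial-like and neuronal-like cells the E9.5 intervals overlapped, with 1.74 and 1.95, 1.11 and 1.28, and 2.30 and 2.82.

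**Figure D4:**
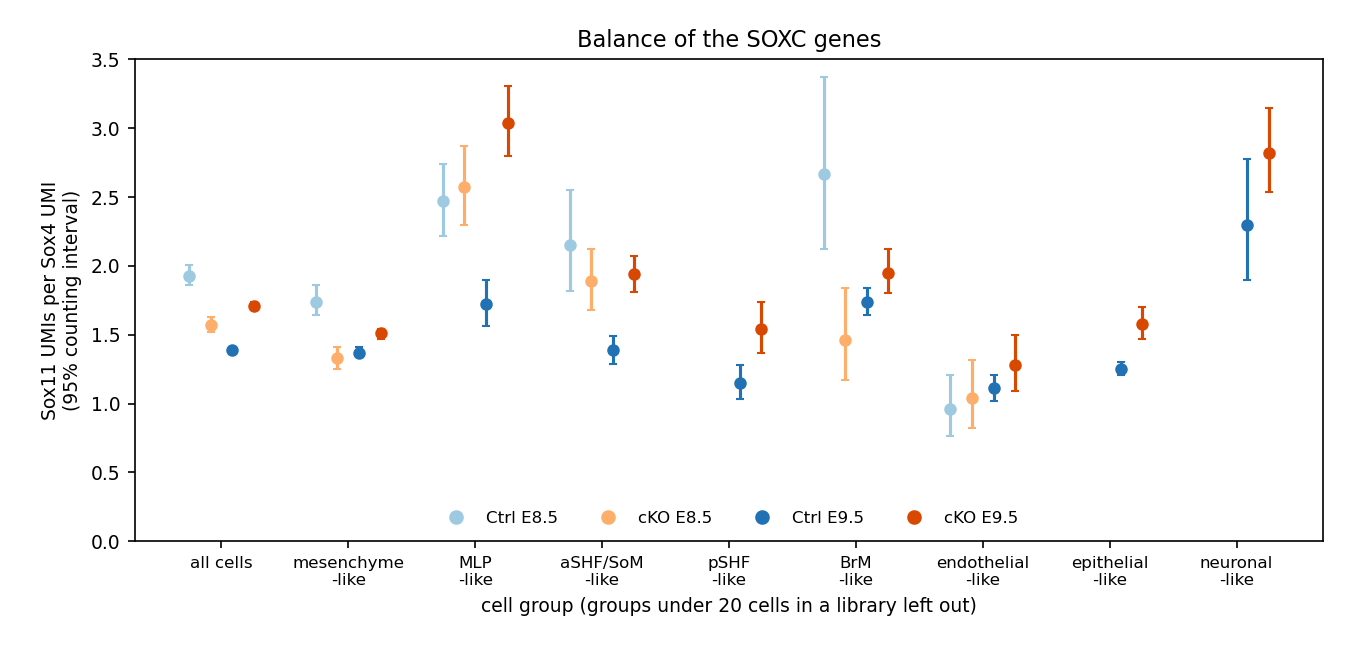
Points give Sox11 UMIs per Sox4 UMI in each cell group and library, with 95% counting intervals as bars. In MLP-like cells the point of Ctrl E9.5 is at 1.72 and that of cKO E9.5 at 3.04.

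In MLP-like cells Sox4 was at 159, 164, 282 and 201 UPM and Sox11 at 392, 421, 485 and 613 UPM in the order Ctrl E8.5, cKO E8.5, Ctrl E9.5, cKO E9.5. At E9.5 Sox4 was lower in cKO (-0.48, -0.64 to -0.33) and Sox11 higher (0.34, 0.23 to 0.44), both within 1.5-fold. The median of all genes in that group was -0.21. In pSHF-like cells Sox4 was at 469 UPM in Ctrl (433 to 506) and 307 in cKO (279 to 337) at E9.5. Its ratio there was -0.61 (-0.79 to -0.43), or -0.38 with TMM factors, short of 1.5-fold. From E8.5 to E9.5 in Ctrl, Sox4 was higher in MLP-like cells (0.82, 0.65 to 0.99), or 0.55 with TMM factors, inside 1.5-fold.

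Their order across groups was alike at the low end and differed at the top. In Ctrl E9.5, Sox4 was highest in pSHF-like cells, whose interval lay above those of all other groups, followed by otic-like cells at 394 UPM (363 to 427). Among groups of at least 20 cells, epithelial-like, somitic-like and neuronal-like cells followed at 330, 292 and 291 UPM, with overlapping intervals. Sox11 was highest in neuronal-like cells at 668 UPM (602 to 740), followed by otic-like cells at 571 (534 to 610) and pSHF-like cells at 539 (501 to 579), and each of these overlapped its neighbour. Cardiomyocyte-like and endothelial-like cells held the least of both, with Sox4 at 133 and 121 UPM and Sox11 at 191 and 135 UPM. In neuronal-like cells of cKO E9.5 Sox11 was at 671 UPM, and none of 4 tested members was called there, where 17.2% of all genes were called.

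In single cells Sox11 was found in most cells whether or not they held Sox4. At 10000 UMIs, 92.6% of the Sox4-positive cells of Ctrl E9.5 held Sox11, against 83.4% of the Sox4-negative cells, and in cKO E9.5 the shares were 91.6% and 88.7%. Of 3 genes tied to SOXC factors, Dcx and Tubb3, both of young neurons, were higher over all cells in cKO E9.5, at 1.08 against 0.583 UPM and 33.3 against 17.6 UPM, and both are also markers by which neuronal-like cells were gated (30 cells in Ctrl and 88 in cKO at E9.5). Tead2, a transcription factor of the Hippo pathway, was at 338 and 258 UPM. That made 2 of 3 higher, where 5.85% of all genes were higher. Within neuronal-like cells Tubb3 was lower in cKO, at 1380 against 2130 UPM (-0.62, -0.72 to -0.52), as was Tead2, at 247 against 388 UPM (-0.65, -0.89 to -0.41), 2 of 3 where 17.2% of all genes were called. Tubb3 was higher in cKO in MLP-like, pSHF-like, endothelial-like and epithelial-like cells, at 16.3 against 6.35, 19.6 against 6.52, 18.1 against 0.831 and 18.7 against 4.13 UPM.

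Most Sox9 UMIs lay in mesenchyme-like cells, though other groups reached similar levels. Mesenchyme-like cells held 53.4%, 65.1%, 76.1% and 80.3% of its UMIs in Ctrl E8.5, cKO E8.5, Ctrl E9.5 and cKO E9.5, from 38.0%, 42.2%, 47.7% and 57.7% of all UMIs. Its level there was 130, 113, 121 and 95.3 UPM. At E8.5 neural crest-like cells were at 123 UPM in Ctrl (99.3 to 151) and 99.8 in cKO (77.2 to 127), from 27 and 17 cells. Epithelial-like cells were then at 85.6 UPM in Ctrl (55.9 to 125) and 176 in cKO (137 to 222), from 18 and 16 cells. At 10000 UMIs, 66.1%, 59.9%, 61.0% and 52.2% of mesenchyme-like cells held Sox9, against 15.3%, 2.33%, 5.19% and 4.81% of endothelial-like cells. At full depth these shares were 79.6%, 80.3%, 74.0% and 66.2%, and between 8.74% and 20% of endothelial-like cells. The ratio in mesenchyme-like cells was -0.20 at E8.5 (-0.32 to -0.09) and -0.34 at E9.5 (-0.39 to -0.29), and 0.07 (0.0 to 0.14) at E9.5 when the group was taken from clusters. In unassigned cells Sox9 was lower in cKO at both stages (-1.12, -1.40 to -0.84, and -0.88, -1.07 to -0.69). In somitic-like cells of E9.5 it was also lower (-0.70, -1.18 to -0.19), from 207 UMIs in cKO and 43 in Ctrl.

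In progenitor groups Sox9 was scarcer than in mesenchyme-like cells. In MLP-like cells it was at 58.4 UPM in Ctrl and 33.1 in cKO at E8.5, and 33.5 in Ctrl and 20.5 in cKO at E9.5, so cKO was lower at both stages (-0.82, -1.20 to -0.45, and -0.71, -1.19 to -0.23). It was the only one of 4 tested members called there at either stage, where 9.04% of all genes were called at E8.5 and 20.3% at E9.5. The E8.5 ratio was -0.15 with 1 more marker required (-0.68 to 0.40) and -0.95 from clusters (-1.52 to -0.39). The E9.5 ratio was -0.16 from clusters (-0.58 to 0.27), -0.13 with the gate set on thinned cells (-0.78 to 0.51) and -0.48 with TMM factors.

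In aSHF/SoM-like cells Sox9 was at 33.3 UPM in Ctrl and 22.0 in cKO (-0.60, -0.94 to -0.26) at E9.5, and in pSHF-like cells at 26.8 and 43.5 UPM (0.70, 0.09 to 1.32). The aSHF/SoM-like ratio was -0.41 with TMM factors, inside 1.5-fold, and -0.96 from clusters. The pSHF-like ratio was 0.04 from clusters (-0.35 to 0.42) and 0.24 with 1 more marker. With Sox4 and Sox5 lower, 3 of 4 tested members were called in pSHF-like cells, where 17.8% of all genes were called, from 72 and 75 cells. In BrM-like cells Sox9 was at 20.2 and 25.5 UPM and none of 4 tested members was called, where 24.1% of all genes were. In cardiomyocyte-like cells it was at 7.52 and 7.78 UPM and none of 3 was called, where 16.3% were.

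**Figure D5:**
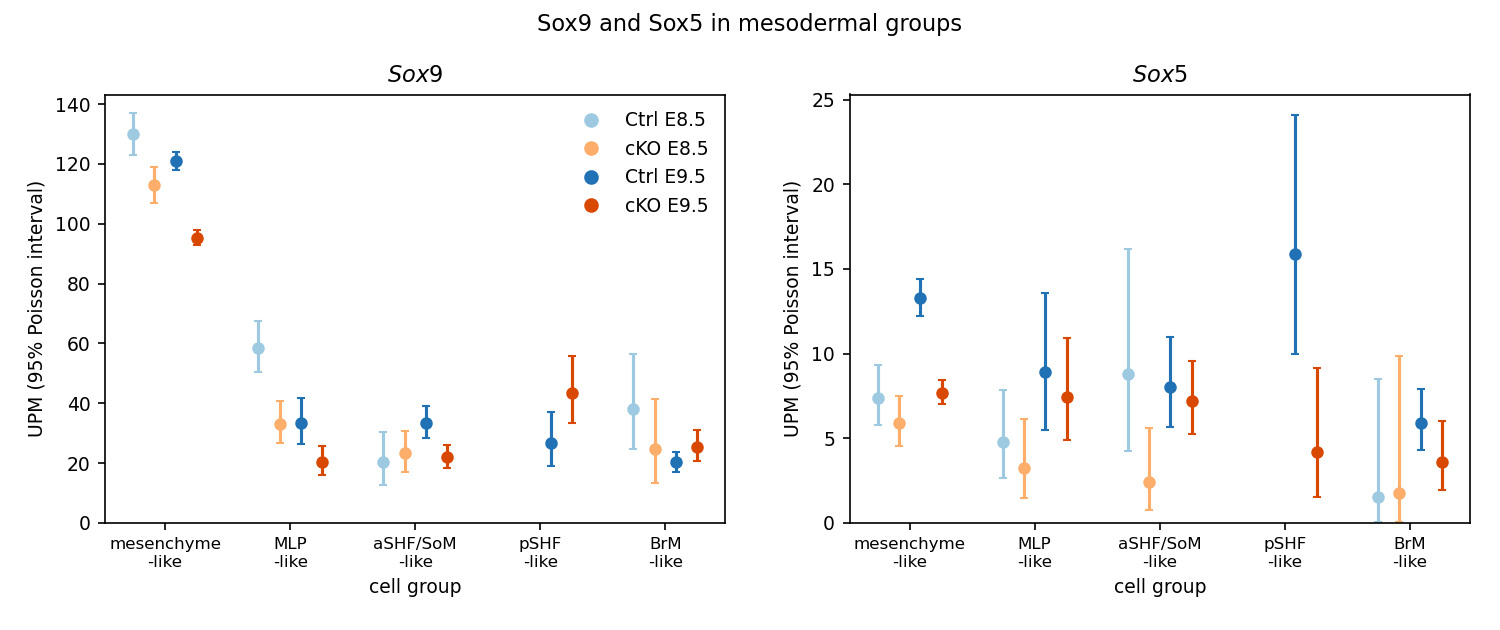
Points give the level (UPM) of Sox9 (left) and Sox5 (right) in mesodermal groups of each library, with 95% Poisson intervals as bars. Sox9 is highest in mesenchyme-like cells, at 121 UPM in Ctrl and 95.3 in cKO at E9.5, and Sox5 in the same group is at 13.3 and 7.69 UPM.

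In endothelial-like cells, where Sox9 was near its lowest, it was at 18.7, 7.58, 11 and 16.7 UPM from 23, 8, 93 and 36 UMIs. The ratios were -1.30 at E8.5 (-2.67 to -0.09) and 0.60 at E9.5 (0.0 to 1.17), both with an interval that ended near no change. Otic-like cells of Ctrl E9.5 held 153 UPM (134 to 174), the highest level there, followed by 121 in mesenchyme-like cells (118 to 124) and 118 in the 21 somitic-like cells (85.7 to 159), whose interval overlapped both. The 11 otic-like cells of cKO E9.5 held 182 UPM.

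Sox5, the partner of Sox9 in cartilage, was lower in cKO E9.5 in several groups. In mesenchyme-like cells it was at 7.40, 5.89, 13.3 and 7.69 UPM in Ctrl E8.5, cKO E8.5, Ctrl E9.5 and cKO E9.5, with an E9.5 ratio of -0.79 (-0.97 to -0.61), or -0.46 (-0.72 to -0.22) when the group was taken from clusters. With Sox18 higher, it made 2 of 7 tested members called in that group, where 22.8% of all genes were called. In pSHF-like cells it was at 15.9 and 4.21 UPM at E9.5 (-1.92, -3.51 to -0.58) from 22 and 6 UMIs. In epithelial-like cells it was at 8.12 and 3.65 UPM (-1.16, -2.04 to -0.38) from 120 and 15 UMIs. With thinned cells both intervals included no change (-3.16 to 0.36 and -1.79 to 0.32). In MLP-like and aSHF/SoM-like cells the intervals included no change, at -0.25 (-1.13 to 0.64) and -0.16 (-0.81 to 0.50).

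Cartilage genes tied to SOX9, SOX5 and SOX6 were compared as a list of 10, of which 7 had enough UMIs. In mesenchyme-like cells at E9.5, 3 of the 7 were lower in cKO and none was higher, where 22.8% of all genes were called, with a median of -0.72 against -0.19 for all genes. These were the collagen IX chains, Col9a1 at 192 and 111 UPM, Col9a2 at 17.6 and 5.01 UPM and Col9a3 at 4.34 and 1.77 UPM. Col2a1, the main cartilage collagen, was at 139 and 93.7 UPM (-0.57, -0.62 to -0.52), short of 1.5-fold. Lower collagen IX was not particular to mesenchyme-like cells. Col9a2 was also lower in MLP-like, aSHF/SoM-like, cardiomyocyte-like, endothelial-like, epithelial-like and unassigned cells of E9.5. Col9a1 was lower in pSHF-like, BrM-like, somitic-like, cardiomyocyte-like, neuronal-like and unassigned cells, but higher in endothelial-like cells. Over all cells 3 of 7 were lower (Col9a2, Col9a3 and the link protein gene Hapln1), where 22.2% of all genes were, with a median of -0.48. At E8.5 none of 7 was called over all cells, with a median of 0.02. Acan, the aggrecan gene, had at most 6 UMIs in any library.

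Sox10 marked a small number of neural crest-like cells and the otic-like cells. In neural crest-like cells it was at 111 UPM in Ctrl (88.4 to 138) and 119 in cKO (94.6 to 149) at E8.5, and 104 in Ctrl (72.5 to 145) and 111 in cKO (50.6 to 210) at E9.5. These came from 27, 17, 13 and 4 cells, and the levels lay close together while the number of such cells differed. Neural crest-like cells held 72.6% and 87.8% of Sox10 UMIs at E8.5, in Ctrl and cKO, but 20.1% and 29.0% at E9.5, where epithelial-like cells held 67.8% and 38.7%.

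Most epithelial Sox10, 96 of 118 UMIs in Ctrl and 8 of 12 in cKO at E9.5, lay in otic-like cells, at 62.8 UPM in 69 cells of Ctrl E9.5 (50.8 to 76.7) and 41.6 UPM in 11 cells of cKO E9.5 (18.0 to 82.0), with overlapping intervals. Endoderm-like cells of Ctrl E9.5 held 1 Sox10 UMI. Over all epithelial-like cells Sox10 was at 7.99 and 2.92 UPM (-1.45, -2.45 to -0.59). With Sox5 and Sox17, it made 3 of 7 tested members lower in epithelial-like cells, where 18.9% of all genes were called. Otic-like cells were 69 of 767 epithelial-like cells in Ctrl and 11 of 208 in cKO at E9.5.

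Most Sox10-positive epithelial-like cells of Ctrl E9.5 also held Sox9, and most held Sox2, but cells with both were not counted. In Ctrl E9.5, 73.2% of 41 Sox10-positive cells also held Sox9 (57.1% to 85.8%), against 21.9% of the 685 others, and 73.2% also held Sox2, against 45.4%. In cKO E9.5 only 1 thinned epithelial-like cell held Sox10. Among the genes tied to SOX10, Ret, a receptor of enteric progenitors, was lower over all cells of cKO E9.5, at 1.09 against 1.86 UPM (-0.77, -1.12 to -0.42).

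From E8.5 to E9.5 in Ctrl, Sox2, Sox4 and Sox17 were higher and Sox10 was lower over all cells. That made 3 of 9 members higher, where 32.1% of all genes were higher, and 1 of 9 lower, where 5.34% were, with a median of all genes at 0.39. Stage, dissected tissue and library cannot be told apart in this comparison, and it shares its Ctrl E9.5 library with the E9.5 genotype comparison. Sox2 was at 7.17 and 21.4 UPM (1.58, 1.36 to 1.81), while the epithelial share went from 1.26% to 14.1%. Sox17 was at 7.45 and 13.2 UPM (0.83, 0.60 to 1.06), and Sox10 at 4.48 and 1.85 UPM (-1.28, -1.63 to -0.92). Sox4 was at 159 and 255 UPM (0.68, 0.64 to 0.73). With TMM factors Sox4 was at 0.36 and Sox17 at 0.50, both inside 1.5-fold.

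Within groups, 6 of 8 tested members were called between the stages in mesenchyme-like cells, where 34.6% of all genes were called. Sox4 (0.67) and Sox5 (0.84) were higher at E9.5, and Sox2 (-1.76), Sox10 (-1.64), Sox17 (-2.92) and Sox18 (-2.23), all under 5 UPM in that group at either stage, were lower. From clusters the Sox2 ratio there was -0.58 (-1.58 to 0.58), and with TMM factors that of Sox4 was 0.45. In MLP-like cells 2 of 4 were called (Sox4 higher, Sox9 lower at -0.80, -1.20 to -0.42), where 26.0% of all genes were called, and the Sox9 ratio was -0.29 with 1 more marker (-0.93 to 0.33). In aSHF/SoM-like cells Sox2, Sox9 (0.72, 0.08 to 1.42) and Sox17 were higher, 3 of 6 where 20.4% of all genes were called. In BrM-like cells Sox4 was higher (0.64, 0.35 to 0.94) and Sox9 lower (-0.92, -1.53 to -0.25), 2 of 4 where 19.5% were called. In endothelial-like cells 1 of 6 was called (Sox9 lower at -0.76, -1.43 to -0.03), where 21.7% were. Sox17 in endothelial-like cells was at 0.46 (0.19 to 0.76) and Sox18 at -0.37 (-0.69 to -0.03), or 0.22 from clusters (-0.08 to 0.52).

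The other family members were low, with Sox12, the remaining SOXC gene, the highest at 27.1, 37.1, 32.2 and 33.9 UPM. Of 10 genes in the rest of the family, 9 had enough UMIs over all cells at E9.5, and Sox1 (45 and 9 UMIs), Sox3 (88 and 65) and Sox21 (119 and 52), all of the B group, were lower in cKO, 3 of 9 where 22.2% of all genes were lower. Within epithelial-like cells of E9.5 Sox3 was higher in cKO, at 6.08 against 3.52 UPM (0.79, 0.04 to 1.5), and likewise in the endoderm-like cells among them, at 8.28 against 3.01 UPM (1.46, 0.02 to 2.79) from 8 and 15 UMIs. At E8.5 Sox3 was the only one of 7 called, higher at 1.83 against 1.03 UPM. Sox6, the other SOXD gene of cartilage, was at 6.73 UPM in Ctrl and 6.94 in cKO (0.05, -0.11 to 0.20) at E9.5, and Sox8, the remaining SOXE gene, at 1.28 and 1.60 UPM (0.31, -0.03 to 0.66).

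The genes with the most similar pattern were found over 40 sums of a group in a library, by Pearson correlation of log2(UPM + 10) among 11979 genes. These sums share libraries and, within a library, depth. The SOXF genes shared their nearest genes: Arap3 and Lcp1 were among the 3 nearest of Sox7 (0.982 and 0.979), Sox17 (0.973 and 0.976) and Sox18 (0.973 and 0.978), and Flt4, the lymphatic receptor VEGFR3, among those of Sox17 (0.97) and Sox18 (0.978). The nearest of Sox2 were Map7 (0.917), Adgrv1 (0.896) and Fgf3 (0.890). The nearest of Sox10 were Plcg2 (0.908), Camk2b (0.839) and Phactr1 (0.813).

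For the widespread members the correlations were lower. The nearest of Sox4 were Cdk4 (0.844), Nipsnap1 (0.830) and March5 (0.827), and those of Sox11 were Zfp113 (0.86), Sept3 (0.853) and Tspan3 (0.834). Axin2, a target of Wnt signalling, was nearest to Sox9 (0.840), before Cbr3 (0.830) and Eif2ak4 (0.825). Sox5, with few UMIs in most groups, had no gene above Rce1 (0.701), before Ccdc127 (0.697) and Xrcc2 (0.687).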

How the data were processed

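Cells of pooled embryos were sorted and profiled with 10x Genomics 3′ chemistry, 1 library per genotype and stage. The deposited matrices hold UMI counts per gene and barcode, made by the authors with Cell Ranger (3.1.0 per the submitters' processing notes, 3.0.2 in both E8.5 matrix headers) on mm10, and not normalized. Gene tables had 27998 genes in 3 libraries and 31053 in cKO E9.5, and 99.39% to 99.87% of UMIs lay in the 27514 shared genes, to which all levels are scaled. Every deposited barcode was kept and no doublet caller was run. In Ctrl E8.5, cKO E8.5, Ctrl E9.5 and cKO E9.5, 3, 1, 48 and 42 cells passed 2 or more first-tier gates. The first tier held the endothelial, epithelial, cardiomyocyte, neuronal, neural progenitor and neural crest gates. Overlap among the other gates was not counted.

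A cell joined a group when it held at least 1 UMI of a set number of its markers, from 3 of 5 (somitic-like) to 6 of 12 (endothelial-like). First-tier groups were assigned first, then the MLP-like, aSHF/SoM-like, pSHF-like, BrM-like and somitic-like groups, and mesenchyme-like cells last. Within a tier, a cell that passed several gates joined the group with the largest fraction of its markers, and ties were left unassigned. These numbers were set after marker counts were seen, and groups were rebuilt here rather than taken from the authors. Group sums were compared between libraries with exact conditional binomial intervals, levels with exact Poisson and shares with Clopper-Pearson intervals, all at 95% and for counting error only. Genes counted as higher or lower had at least 20 UMIs in the 2 sums together. Shares of positive cells used cells thinned to 10000 UMIs. The genes named are the 9 Sox genes, the rest of the family, lists of genes tied to SOX factors (cartilage, vascular, SOX10 and SOXC genes), and for each Sox gene the 3 genes of highest correlation over groups of at least 20 cells, among those with at least 200 UMIs that were neither Sox genes nor markers. The members and lists were chosen with earlier results of these data known. A result for 1 gene of the SOX10 list is not reported here. The comparison was run on simulated counts with Poisson error only. These held no spread between cells, embryos or libraries, so the run does not bear on such spread.

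Alternatives were TMM factors (edgeR, used for scaling only), median-of-ratios factors, barcodes of 5000 to 60000 UMIs, equal weight per cell, thinning and Ctrl group shares of UMIs. Others were 1 more marker, gates on thinned cells, clusters, 2 UMIs for a positive cell and no filter on low counts. Leaving out cells of 2 or more first-tier gates was chosen after seeing the data. Python 3.11.15, numpy 2.4.6, scipy 1.17.1, pandas 2.3.3, matplotlib 3.10.9, R 4.3.3 and edgeR 4.0.16 were used. Promoters and gene positions were taken from RefSeq on GRCm38.p6.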

Additional observations from a re-analysis of the deposited data

Results flagged for a closer look

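For 5 results the cKO to Ctrl log2 ratio had opposite signs at E8.5 and E9.5, past 1.5-fold at each stage with counting intervals that excluded no change. There was 1 library per genotype and stage, so the difference between stages was not tested. Sox17 in endothelial-like cells was at 0.76 at E8.5 and -0.63 at E9.5. Sox9 in endothelial-like cells was at -1.30 at E8.5 (-2.67 to -0.09), from 8 and 23 UMIs, and at 0.60 at E9.5 (0.0 to 1.17), from 36 and 93 UMIs in cKO and Ctrl. Both intervals ended near no change, and at 10000 UMIs the shares of Sox9-positive cells at E9.5 were 4.81% in cKO and 5.19% in Ctrl. Sox2 in unassigned cells was at 0.93 at E8.5 and -1.20 at E9.5, and Sox17 in the same cells at 0.80 (0.01 to 1.60) and -1.18. Sox18 over all cells was at 0.81 at E8.5 and -1.05 at E9.5, and within endothelial-like cells at 0.91 and 0.84, while the endothelial share was 4.18% and 4.04% at E8.5 and 7.56% and 1.9% at E9.5 in Ctrl and cKO.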

How the results depend on the processing

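Of 518 log2 ratios recomputed under alternatives, 419 stayed within their counting interval, 96 moved beyond it and 3 changed sign from a called value, and the sign differed from the reported one in 28 ratios in all. The 3 were Sox2 (0.05) and Sox18 (0.83) over all cells at E9.5 with groups at Ctrl shares, and Sox2 in mesenchyme-like cells at E8.5 (0.14) with groups from clusters. With groups at Ctrl shares, 2 Sox genes were higher and 1 lower at E8.5, and 1 was higher and 3 lower at E9.5. At E8.5, 1 gene was also lower under TMM factors, median-of-ratios factors (Sox5 in both) and thinning (Sox10). From E8.5 to E9.5, both sets of factors left 1 gene higher and put 2 lower. TMM shifted all-cell ratios by 0.26 at E9.5 and by -0.32 between stages, so that Sox11 and Sox18 between stages went from 0.21 and 0.13 to -0.11 and -0.19, and each set of factors moved 29 of 68 ratios. All 68 stayed with barcodes of 5000 to 60000 UMIs, and all 41 without cells of 2 or more first-tier gates. Clusters moved 13 of 40, among them Sox9 in mesenchyme-like, MLP-like and pSHF-like cells at E9.5. Sox10 in epithelial-like cells was at -3.95 with thinned cells. With 1 library per condition no replicate could be left out. No paired analysis was possible because each condition has 1 library. Low members are limited by depth: Sox5, Sox7 and Sox10 had under 20 UMIs in many groups.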
